A study of Mus musculus with 14 samples.

Results

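Mature neutrophil receptors and alarmins were followed here as 9 genes, *S100a8*, *S100a9*, *Retnlg*, *Csf3r*, *Cxcr2*, *Il1r2*, *Il1b*, *Fpr1* and *Fpr2*, taken by symbol from the 23441 genes of the deposited count matrix. All 9 passed the filter on low counts that left 17494 genes to test. Their mRNA was counted in bone marrow plugs of the distal tibia from male mice of 24 weeks, in 14 samples, each a pool of the marrow of a pair of mice. The mice ate freely (ad libitum, AL) or were held to 30% caloric restriction (CR) for 6 weeks, with 4 samples for each diet from BMAd-Pnpla2+/+ mice and 3 for each from BMAd-Pnpla2-/- mice. BMAd-Pnpla2-/- mice carry floxed *Pnpla2*, the gene of adipose triglyceride lipase (ATGL), and lose it in bone marrow adipocytes (BMAds), and BMAd-Pnpla2+/+ controls lack the floxed alleles. Mice of every group, the controls included, carry *Osterix-FLPo* and an FLPo-activated *Adipoq-Cre* (FAC), mostly on both alleles, on a mixed C57BL6/SJL background. FLPo made from the *Osterix* locus turns the Cre around, and Cre is then made where *Adipoq* is expressed. As the study describes, some stromal cells are also recombined, and the cassette lowers adiponectin protein. No neutrophil gene is targeted, so the comparisons ask how the neutrophil part of the marrow stands under CR and under loss of BMAd lipolysis.

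Neutrophils are made in the bone marrow from granulocyte progenitors, store there as a large reserve of nearly finished cells, and leave for the blood as they mature. In the course of that maturation they stop making the enzymes of their primary granules, then those of their secondary granules, and begin to express surface receptors that read chemokines, bacterial peptides and cytokines. S100A8 and S100A9 pair into calprotectin, a metal-binding protein that fills the neutrophil cytoplasm and acts as an alarm signal when released. Resistin-like gamma, encoded by *Retnlg*, is a small secreted protein made by mouse neutrophils. CSF3R binds granulocyte colony-stimulating factor (G-CSF), CXCR2 binds the chemokines that draw neutrophils out of the marrow, and FPR1 and FPR2 bind formylated peptides. IL-1β, encoded by *Il1b*, is a cytokine of activated myeloid cells, and IL1R2 is its decoy receptor, which binds the cytokine without signalling.

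In the annotation of GRCm38 (GENCODE M21), *S100a8* (ENSMUSG00000056054.9, chr3:90668978-90670035, forward strand) and *S100a9* (ENSMUSG00000056071.12, chr3:90692632-90695721, reverse strand) are neighbours. *Fpr1* (ENSMUSG00000045551.7, chr17:17876471-17883940, reverse strand) and *Fpr2* (ENSMUSG00000052270.7, chr17:17887824-17893952, forward strand) also lie side by side. *Cxcr2* (ENSMUSG00000026180.8, chr1:74153989-74161246) and *Il1r2* (ENSMUSG00000026073.13, chr1:40074079-40125231) are on the forward strand of one chromosome. *Retnlg* (ENSMUSG00000022651.6, chr16:48872621-48874496) and *Csf3r* (ENSMUSG00000028859.14, chr4:126024550-126044440) are on forward strands and *Il1b* (ENSMUSG00000027398.13, chr2:129364570-129371139) is on a reverse strand. Every count given here is of reads over the exons of the gene, without regard to strand. *Il1b* shares 25 exon bases with the antisense gene *Il1bos*. *Fpr2* shares 48 exon bases with *Fpr3* on the same strand, and 31.4% of the stretches of 50 bases of its transcripts are also found in transcripts of *Fpr3* or *Gm5966*, so that reads there cannot be assigned with certainty. For *Csf3r* that share was 10.5% and for *Cxcr2* 4.01%, each with transcripts of over 100 other genes, and for the other 6 genes it was 0%.

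The promoters of all 9 genes were searched for motifs of C/EBP factors and PU.1, which are known for their part in granulocyte genes. The windows were the RefSeq promoters of GRCm38.p6, from 250 bases before to 50 after each start, and the motifs were TTNCNNAA for the C/EBP family and GAGGAA for PU.1, each on both strands. The C/EBP letters were found in 6 of the 9 promoters (*S100a8*, *S100a9*, *Retnlg*, *Il1b*, *Fpr1* and *Fpr2*) and in 40.7% of 32851 promoters of all genes. The PU.1 letters were found in 4 of the 9 (*S100a8*, *Csf3r*, *Cxcr2* and *Fpr2*) and in 28.3% of all promoters. For the 5 genes that fell under CR in BMAd-Pnpla2+/+ mice, the match of each motif nearest before the start is shown, read along the strand of the gene, with the motif letters or their reverse complement in capitals and neighbouring bases in lower case.
*S100a8*, C/EBP, chr3:90668946-90668969, forward strand: ggacttggTTAGGAAAcagaggct
*S100a9*, C/EBP, chr3:90695836-90695859, reverse strand: gctgggaaTTTCACAAaacatcag
*Il1b*, C/EBP, chr2:129371215-129371238, reverse strand: cagttttgTTGTGAAAtcagttaa
*S100a8*, PU.1, chr3:90669027-90669048, forward strand: gccaagctTTCCTCtataaaag
*Cxcr2*, PU.1, chr1:74153905-74153926, forward strand: cctagccaTTCCTCtataggac
*Csf3r*, PU.1, chr4:126024565-126024586, forward strand: cttcctgaGAGGAAggggctgt
Counted from the RefSeq start, the C/EBP matches begin at -117 (*S100a8*), -130 (*S100a9*) and -91 (*Il1b*). The PU.1 matches begin at -36 (*S100a8*), -81 (*Cxcr2*) and -86 (*Csf3r*). This choice of windows was made after the changes were known. The GENCODE spans of *S100a8* and *Csf3r* begin further upstream than those RefSeq starts. A match of letters is a description and does not show a bound site.

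Each library held 25282327 to 27475056 read pairs, of which 18658806 to 21339006 were counted without regard to strand on genes of the matrix. In 11 samples 4.30% to 4.62% of the reads assigned to a strand lay on the first strand, whereas in the 3 BMAd-Pnpla2-/- CR samples 50.1% to 50.5% did, so these 3 libraries were not stranded. That difference in library type and the BMAd-Pnpla2-/- CR group cannot be told apart, and it touches every comparison that group enters. In the 11 stranded samples the unstranded count of each of the 9 genes was 0.989 to 1.02 times its reverse-strand count, so the choice of strand hardly touched them. *Pnpla2*, the deleted gene, was at 219 ± 58.4 CPM (mean ± SD, n = 4; CPM are counts per library size after TMM scaling) in BMAd-Pnpla2+/+ AL and 148 ± 21.7 (n = 3) in BMAd-Pnpla2-/- AL samples. Under CR it was at 839.9 ± 241 (n = 4) and 224 ± 45.5 (n = 3). On each diet every BMAd-Pnpla2-/- sample was below every BMAd-Pnpla2+/+ sample. The share of all genes lower without overlap is not given for these comparisons. In edgeR's quasi-likelihood test, adjusted over all genes, *Pnpla2* did not pass between genotypes AL. With a sample left out its adjusted p there was at least 0.946. Under CR the gene passed (adjusted p = 0.0387), a call lost without any of 8 of the 14 samples (adjusted p up to 0.220). It passed there in 7 of 8 alternatives to the processing. Genes listed as markers of mature neutrophils were detected in every sample. *Mmp9*, a secreted gelatinase, was between 1173 and 2429.8 CPM, and *Mmp8*, a collagenase, between 340.3 and 1004. *Cd177* was between 477 and 1223 CPM, *Padi4* between 100.01 and 297, and the surface antigen *Ly6g* between 17.0 and 105. The part of other cells in these levels was not tested.

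CR lowered 5 of the 9 genes in BMAd-Pnpla2+/+ mice, namely *S100a8*, *S100a9*, *Csf3r*, *Cxcr2* and *Il1b*, and raised none (adjusted p, padj, under 0.05 in edgeR's quasi-likelihood test, over all genes tested). Of all 17494 genes tested, 10.9% (1915) were lower and 15% (2628) were higher by the same rule, with the fewest, 768 and 1432, without BMAd-Pnpla2+/+ CR replicate 3. With the further demand of an absolute log2 fold change over 1, the study's criteria, *S100a9* and *Il1b* remained, 2 of 9, where 9.19% of all genes did. The median log2 fold change was -0.70 over the 9 genes and 0.0029 over all genes tested. The 9 genes were chosen with earlier results of these data known, so their contrast with all genes is a description. In marrow as a whole, fewer neutrophils, less of an mRNA per neutrophil and a larger share of RNA from other cells, such as adipocytes, cannot be told apart.

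The alarmins were the most abundant of the 9. *S100a8* was at 2660.2, 3826, 3997 and 3381 CPM in the 4 BMAd-Pnpla2+/+ AL samples and at 2450.1, 1116, 1538 and 2039.5 CPM in the 4 BMAd-Pnpla2+/+ CR samples. *S100a9*, its partner, was at 4865, 6406, 7184 and 4704 CPM AL and at 3771, 1945, 2014 and 3295 CPM under CR. For each gene of the pair, all 4 CR samples lay below all 4 AL samples. *S100a8* fell by 0.96 on the log2 scale (standard error 0.23, padj = 0.0113) and *S100a9* fell by 1.07 (standard error 0.25, padj = 0.0109). The pair took 0.910% ± 0.158 (SD, n = 4) of the gene reads AL and 0.460% ± 0.142 (n = 4) under CR. The ratio of *S100a9* to *S100a8* counts was 1.67 ± 0.199 AL and 1.55 ± 0.182 under CR, and its ranges overlapped. *Retnlg*, the third secreted product of the set, was at 588, 888, 1023 and 772 CPM AL and at 764, 324, 429 and 848 CPM under CR. Its groups overlapped, and its log2 fold change of -0.47 (95% interval -1.07 to 0.13, padj = 0.220) did not pass.

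**Figure D1:**
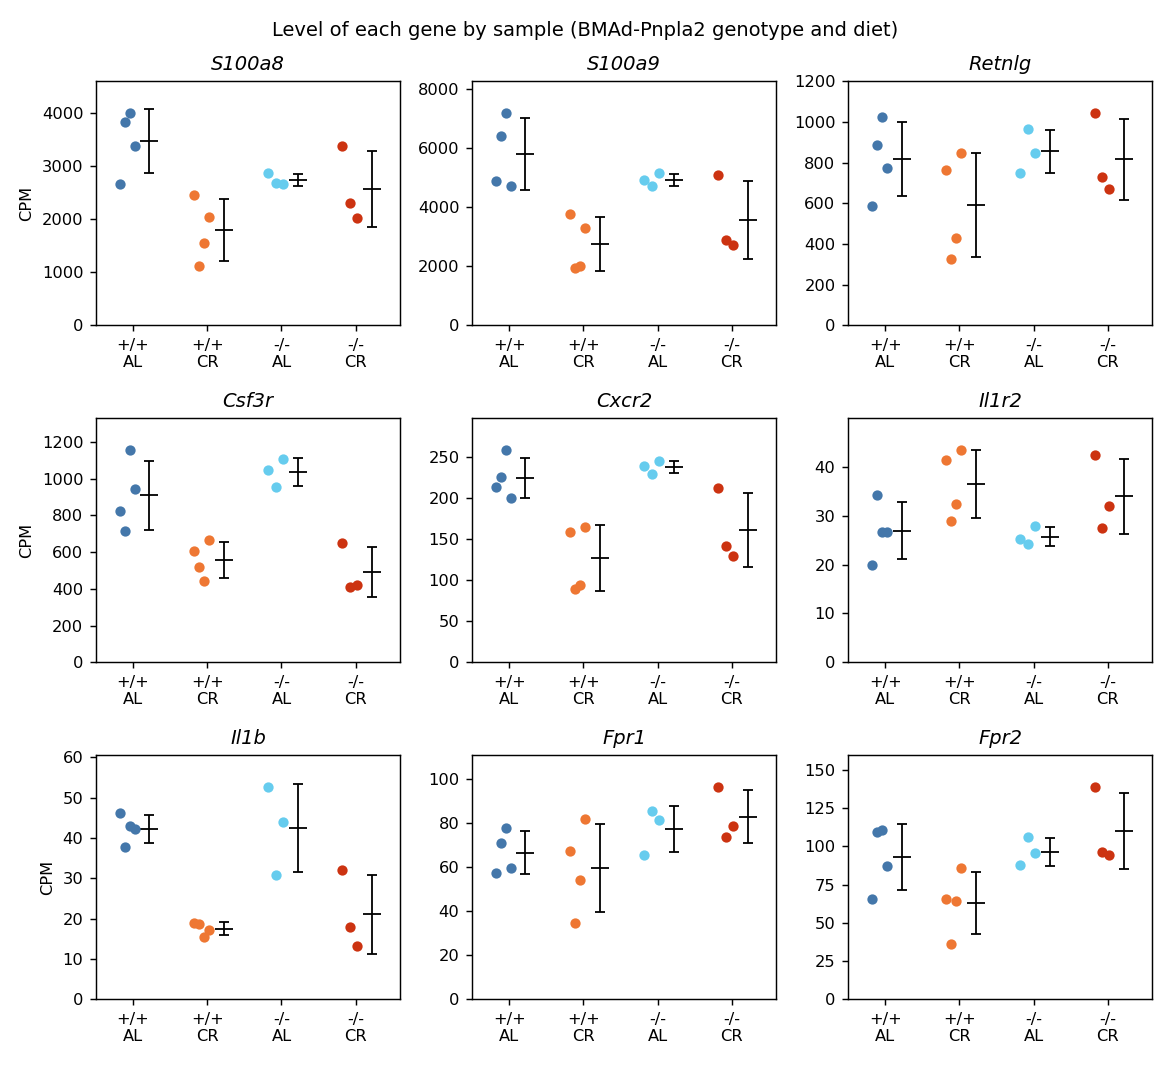
CPM of the 9 genes in each sample, on linear axes that start at 0, for AL and CR samples of BMAd-Pnpla2+/+ (n = 4 each) and BMAd-Pnpla2-/- (n = 3 each) mice; points are samples, and the bar beside them is the mean with the SD. *Il1b* under CR in BMAd-Pnpla2+/+ mice spans only 15.5 to 18.9 CPM, apart from the AL samples at 37.7 to 46.1 CPM, whereas *Fpr1* overlaps between AL and CR in both genotypes.

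Among the receptors for maturation and exit signals, *Csf3r* was at 823, 718, 1157 and 942 CPM in BMAd-Pnpla2+/+ AL samples and at 604, 522, 444 and 669 CPM in BMAd-Pnpla2+/+ CR samples. *Cxcr2* was at 214, 225, 258 and 200.4 CPM AL and at 158, 89.4, 94.4 and 165 CPM under CR. Again every CR sample lay below every AL sample for both receptors. *Csf3r* fell by 0.70 on the log2 scale (standard error 0.18, padj = 0.0157) and *Cxcr2* fell by 0.82 (standard error 0.21, padj = 0.0140). The call of *Csf3r* was lost without BMAd-Pnpla2+/+ CR replicate 3 (padj = 0.0509).

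The ligand and the decoy receptor of the IL-1 system had log2 fold changes of opposite sign, and that of the ligand passed. *Il1b* was at 46.1, 37.7, 43.0 and 42.3 CPM in BMAd-Pnpla2+/+ AL samples and at 18.9, 18.6, 15.5 and 17.2 CPM in BMAd-Pnpla2+/+ CR samples, with a wide gap between the groups. It fell by 1.27 on the log2 scale (standard error 0.23, padj = 0.00353), the largest absolute log2 fold change among the 9 genes, and its coefficient of variation was 8.21% AL and 8.76% under CR. *Il1r2*, by contrast, was at 20.0, 34.2, 26.7 and 26.7 CPM AL and at 41.4, 28.8, 32.5 and 43.4 CPM under CR, with 2 CR samples above every AL sample. Its log2 fold change of 0.44 (standard error 0.18, padj = 0.0806) was the only positive value of the 9 and did not pass. It passed when samples were scaled by total counts alone (padj = 0.0499) and without BMAd-Pnpla2+/+ AL replicate 2 (padj = 0.0436). The log2 ratio of *Il1r2* to *Il1b* CPM, a measure chosen after these values were seen and therefore not tested, was -0.67 ± 0.44 (SD, n = 4) AL and 1.04 ± 0.30 (n = 4) under CR.

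The formyl peptide receptors did not pass the test. *Fpr1* was at 57.2, 71.2, 78.0 and 59.7 CPM in BMAd-Pnpla2+/+ AL samples and at 67.5, 34.9, 54.0 and 82.1 CPM under CR, so that the CR samples lay on both sides of the AL samples. *Fpr2* was at 65.4, 109.6, 111 and 87.0 CPM AL and at 65.7, 36.3, 64.6 and 86.1 CPM under CR, with 2 CR samples below every AL sample. Their log2 fold changes were -0.16 (95% interval -0.61 to 0.29, padj = 0.592) and -0.56 (95% interval -1.06 to -0.06, padj = 0.0902). *Fpr2* passed without BMAd-Pnpla2+/+ AL replicate 1 (padj = 0.0461) and without BMAd-Pnpla2+/+ CR replicate 4 (padj = 0.0275).

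The 5 genes that passed were also the 5 of the 9 for which all BMAd-Pnpla2+/+ CR samples lay below all AL samples, a separation seen in 10.4% of all genes tested. Within the CR group, replicates 1 and 4 were above replicates 2 and 3 for 8 of the 9 genes, with *Il1b* as the exception. The same replicates 1 and 4 held more RNA of 7 erythroid marker genes, 31170 and 48459 summed CPM against 10090 and 10320 in replicates 2 and 3. They held less of 6 adipocyte marker genes, 1896 and 1104 summed CPM against 2588 and 2595. The part of these differences in the results was not tested, and the share of all genes with that order of replicates was not counted.

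**Figure D2:**
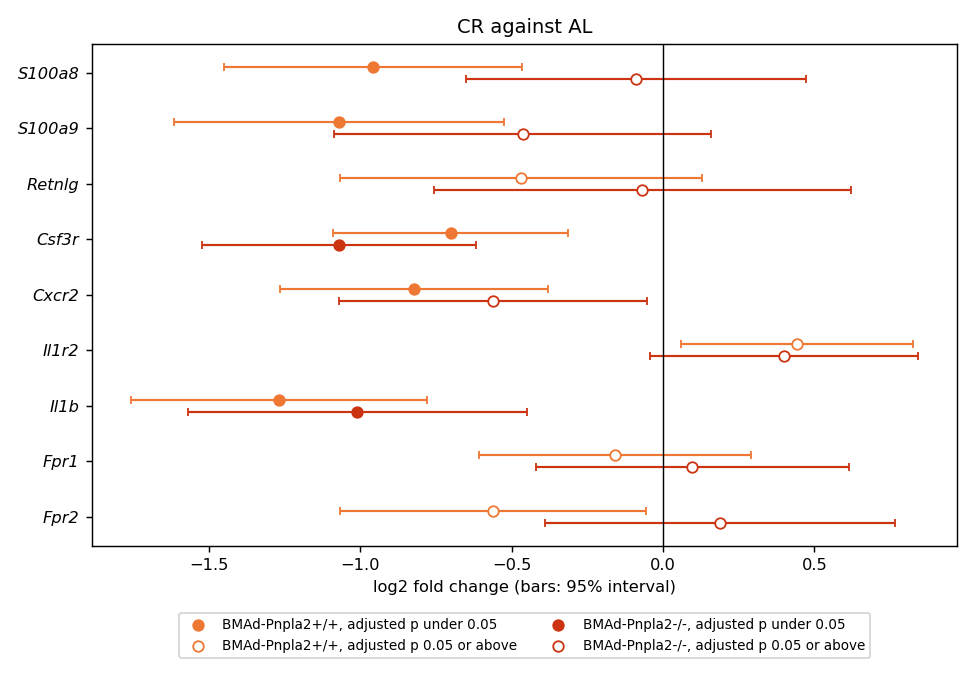
Log2 fold change of CR against AL for the 9 genes in BMAd-Pnpla2+/+ (4 samples against 4) and BMAd-Pnpla2-/- mice (3 against 3), with 95% intervals; filled points passed an adjusted p of 0.05. *Csf3r* and *Il1b* are filled in both genotypes, *S100a8*, *S100a9* and *Cxcr2* in BMAd-Pnpla2+/+ mice, and *Il1r2* lies to the right of 0 in both without passing.

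CR lowered 2 of the 9 genes in BMAd-Pnpla2-/- mice, *Csf3r* and *Il1b*, and raised none. Of all genes tested, 5.57% (974) were lower and 6.01% (1051) were higher, a split that moved to 682 lower and 1386 higher with total counts alone and to 1246 and 900 with DESeq2's size factors. Those counts fell to 127 lower and 121 higher without BMAd-Pnpla2-/- CR replicate 3, to 312 and 131 without AL replicate 1, to 339 and 171 without AL replicate 3, and to 343 and 474 without CR replicate 2. Both genes were past the criteria, which 3.52% of all genes were. *Csf3r* was at 1045, 958 and 1107 CPM in the 3 AL samples and at 651, 413 and 419 CPM in the 3 CR samples, and the groups did not overlap. It fell by 1.07 on the log2 scale (standard error 0.21, padj = 0.0112), a call lost without BMAd-Pnpla2-/- CR replicate 3 (padj = 0.0570). *Il1b* was at 52.6, 30.9 and 43.9 CPM AL and at 32.1, 18.1 and 13.2 CPM under CR, and the highest CR sample was above the lowest AL sample. It fell by 1.01 (standard error 0.26, padj = 0.0273). That call was lost without any of 4 samples, AL replicates 1 or 3 or CR replicates 2 or 3 of BMAd-Pnpla2-/- mice, with padj up to 0.09975, and when only the 2 groups were fitted (padj = 0.0639).

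*Cxcr2* was at 239, 229 and 244 CPM in BMAd-Pnpla2-/- AL samples and at 213, 141 and 129 CPM under CR. Its groups did not overlap either, as was so for 17.4% of all genes tested in this comparison of 3 against 3, but its log2 fold change of -0.56 (95% interval -1.07 to -0.05, padj = 0.134) did not pass. *S100a8* was at 2869.6, 2670.2 and 2661 CPM AL and at 3380.2, 2307 and 2019.6 CPM under CR. *S100a9* was at 4903, 4726 and 5133 CPM AL and at 5095, 2896 and 2717 CPM under CR. In both alarmins CR replicate 1 lay within or above the AL range and the other 2 CR samples lay below it, and the log2 fold changes of -0.09 (95% interval -0.65 to 0.47, padj = 0.857) and -0.46 (95% interval -1.09 to 0.16, padj = 0.314) did not pass. *Retnlg* was at 751, 966 and 849 CPM AL and at 1045, 731 and 669.6 CPM under CR, and its log2 fold change was -0.07 (95% interval -0.76 to 0.62, padj = 0.913).

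*Il1r2* was at 25.1, 24.1 and 27.9 CPM in BMAd-Pnpla2-/- AL samples and at 42.4, 27.5 and 31.9 CPM under CR, where 2 of the 3 CR samples were above every AL sample. Its log2 fold change of 0.40 (95% interval -0.04 to 0.84, padj = 0.217) was close in size to that in BMAd-Pnpla2+/+ mice and did not pass. The log2 ratio of *Il1r2* to *Il1b* was -0.69 ± 0.36 (SD, n = 3) AL and 0.76 ± 0.46 (n = 3) under CR. *Fpr1* was at 65.8, 85.5 and 81.3 CPM AL and at 96.4, 73.6 and 78.9 CPM under CR, and *Fpr2* was at 87.7, 106 and 95.9 CPM AL and at 139, 96.6 and 94.5 CPM under CR. Neither receptor separated the groups, and their log2 fold changes were 0.10 (95% interval -0.42 to 0.62, padj = 0.830) and 0.19 (95% interval -0.39 to 0.77, padj = 0.687). The median over the 9 genes was -0.09, and 0.05 over all genes tested. BMAd-Pnpla2-/- CR replicate 1 was the highest of its group for all 9 genes, and in it the adipocyte markers summed to 753 CPM against 1126 and 1220.5 CPM in the other 2 samples. The part of that difference was not tested, and the share of all genes that were highest in that sample was not counted.

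Without CR, no difference between the genotypes passed for any of the 9 genes (0 of 9 in edgeR, 0 at an unadjusted p under 0.05 and 0 in DESeq2), where the shares of all genes tested were 0%, 3.97% and 0.109%. Relative to BMAd-Pnpla2+/+ mice AL, the log2 fold changes in BMAd-Pnpla2-/- mice lay between -0.34 for *S100a8* (95% interval -0.87 to 0.19) and 0.22 for *Fpr1* (95% interval -0.26 to 0.70). For *Il1b* the AL means were 42.3 ± 3.47 CPM (SD, n = 4) and 42.5 ± 10.9 CPM (n = 3), for a log2 fold change of 0.01 (95% interval -0.51 to 0.52).

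Under CR, again none of the 9 passed between the genotypes (0 of 9 in edgeR, 2 at an unadjusted p under 0.05 and 1 in DESeq2). The shares of all genes tested were 0.0171% in edgeR, 23.2% at an unadjusted p and 9.24% in DESeq2, so 2 of 9 and 1 of 9 lay near the background. *Fpr2* differed most, at 139, 96.6 and 94.5 CPM in BMAd-Pnpla2-/- CR samples against 65.7, 36.3, 64.6 and 86.1 CPM in BMAd-Pnpla2+/+ CR samples. It was the 1 member whose genotype groups did not overlap under CR, where 8.68% of all genes tested lay higher without overlap in BMAd-Pnpla2-/- samples. Its log2 fold change was 0.80 (standard error 0.25, 95% interval 0.26 to 1.34, padj = 0.101 in edgeR and 0.0334 in DESeq2). Without BMAd-Pnpla2+/+ CR replicate 4 it was 0.99 (padj = 0.0298), and with the counts of the deposited matrix padj was 0.0487. In these runs 12% and 14% of all genes tested passed. *S100a8* had a log2 fold change of 0.52 (95% interval 0.0019 to 1.05, padj = 0.215), with means of 2569 ± 717 CPM (n = 3) and 1786 ± 582 CPM (n = 4). *Fpr1* had one of 0.48 (95% interval -0.01 to 0.96, padj = 0.220), and the other 6 lay between -0.18 for *Csf3r* and 0.46 for *Retnlg*. The median over the 9 genes was 0.37, and -0.01 over all genes tested. Erythroid markers summed to 28973 to 47210 CPM in BMAd-Pnpla2-/- CR and 10090 to 48459 CPM in BMAd-Pnpla2+/+ CR samples, and adipocyte markers to 753 to 1220.5 CPM and 1104 to 2595 CPM. The part of either in these values was not tested.

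The difference between the responses to CR, BMAd-Pnpla2-/- minus BMAd-Pnpla2+/+, was tested directly and passed for none of the 9 genes (0 of 9 in edgeR, 1 at an unadjusted p under 0.05 and 0 in DESeq2). The shares of all genes tested were 0%, 10.4% and 0.372%. A response that passed in BMAd-Pnpla2+/+ mice and not in BMAd-Pnpla2-/- mice was thus not shown to differ between them. The largest difference was that of *S100a8*, 0.87 on the log2 scale (95% interval 0.12 to 1.61, padj = 0.421), between a response of -0.96 and one of -0.09. *Fpr2* followed with 0.75 (95% interval -0.02 to 1.52, padj = 0.487) and *S100a9* with 0.61 (95% interval -0.22 to 1.43, padj = 0.583). For *Il1r2* the difference was -0.04 (95% interval -0.63 to 0.54), and for *Il1b* it was 0.26 (95% interval -0.48 to 0.99). *Csf3r* had the only other negative difference, -0.37 (95% interval -0.96 to 0.22). The responses of the genotypes rest on separate AL and CR samples, and the difference holds the library type of the BMAd-Pnpla2-/- CR group within it.

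**Figure D3:**
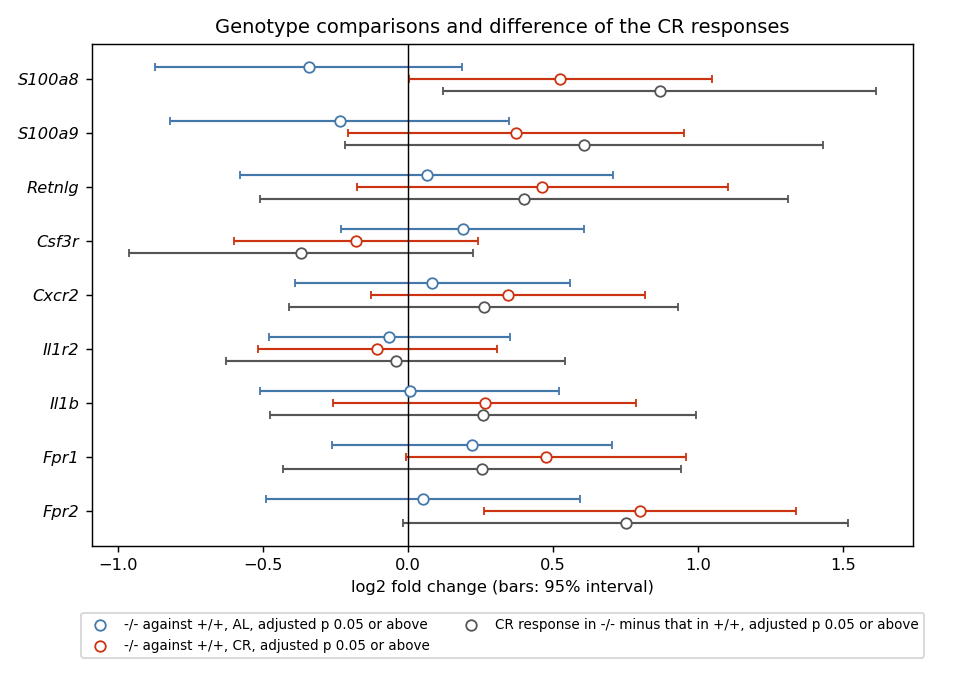
Differences on the log2 scale between BMAd-Pnpla2-/- and BMAd-Pnpla2+/+ mice (positive where BMAd-Pnpla2-/- was higher) AL and under CR, and the CR response of BMAd-Pnpla2-/- mice minus that of BMAd-Pnpla2+/+ mice, for the 9 genes with 95% intervals. All points are open, since none passed an adjusted p of 0.05 in edgeR; the interval of *Fpr2* under CR, 0.26 to 1.34, lies furthest from 0.

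Levels could be compared between genes once divided by length. In RPKM (CPM per kilobase of merged exons), *S100a9* stood first in every group, from 5280.2 ± 1759 (SD, n = 4) in BMAd-Pnpla2+/+ CR to 11092 ± 2309 (n = 4) in BMAd-Pnpla2+/+ AL. *S100a8*, *Retnlg* and *Csf3r* followed in that order in every group without overlap between neighbours, at 4994 ± 859.6, 1379 ± 311 and 252 ± 52.2 in BMAd-Pnpla2+/+ AL samples. Below them *Cxcr2* (73.6 ± 8.11), *Fpr2* (71.9 ± 16.6) and *Fpr1* (50.3 ± 7.39) overlapped with their neighbours in that group. *Il1b* and *Il1r2* were the lowest and changed places with diet. AL, *Il1b* was above *Il1r2*, at 22.2 ± 1.82 against 14.1 ± 3.05 in BMAd-Pnpla2+/+ and 22.3 ± 5.73 against 13.5 ± 1.03 in BMAd-Pnpla2-/- samples. Under CR, *Il1r2* was above *Il1b*, at 19.1 ± 3.67 against 9.21 ± 0.807 in BMAd-Pnpla2+/+ and 17.8 ± 4.004 against 11.1 ± 5.14 in BMAd-Pnpla2-/- samples. Only in the last of these 4 groups did the ranges of the pair overlap.

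Across the 14 samples the log2 CPM of 31 of the 36 pairs among the 9 genes correlated positively, with a median Pearson r of 0.65, and 16 pairs had an r over 0.7. *Il1r2* stood apart, with r from -0.51 with *Il1b* to 0.29 with *Fpr1*. After the mean of each group was subtracted, all 36 pairs were positive, the median r was 0.75, and *Il1r2* correlated with *S100a8* at 0.82 and with *Fpr2* at 0.81. *Il1b* was then the least like the others, with r from 0.01 with *Fpr1* to 0.63 with *Csf3r*. *Fpr1* and *Fpr2* had an r of 0.93, and *S100a8* and *S100a9* of 0.92. All genes of a sample share its library and its mixture of cells, and these values are descriptions.

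**Figure D4:**
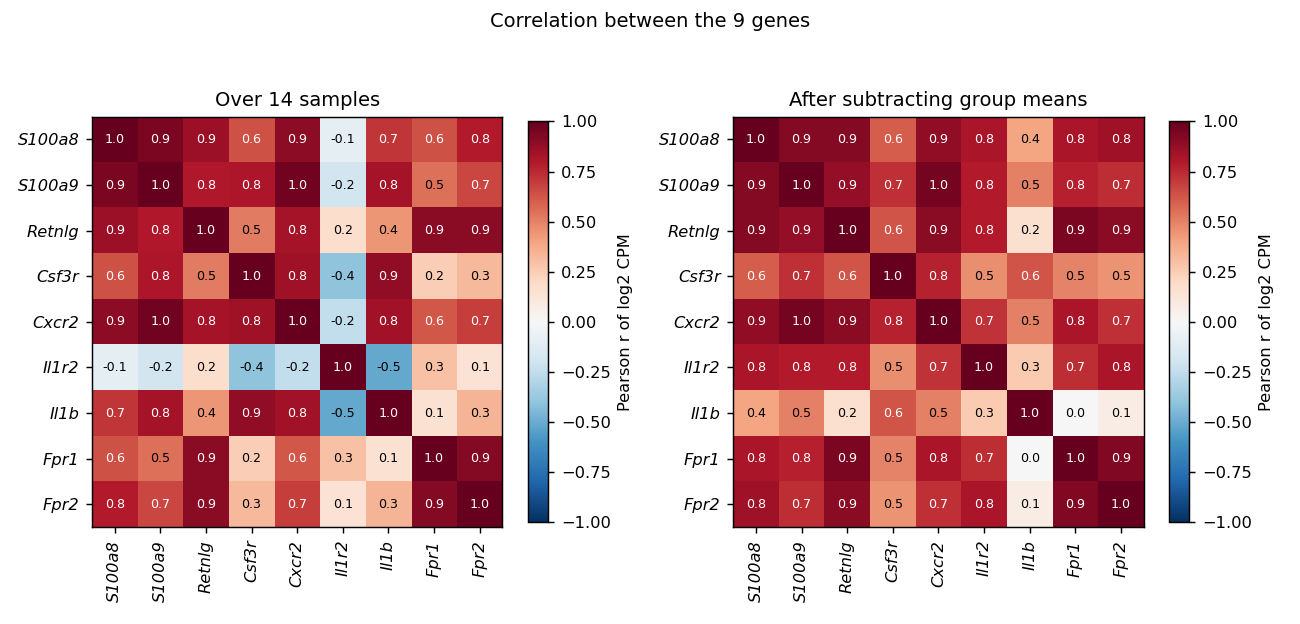
Pearson r of log2 CPM between each pair of the 9 genes over 14 samples (left) and after subtraction of the 4 group means (right), from blue at -1 to red at 1. *Il1r2* has values from -0.51 to 0.29 on the left and only positive ones on the right, where *Il1b* has the palest row.

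The tested genes most like the mean z-score of the 9 over the 14 samples were *Wfdc21* (r = 0.97, mean 87.3 CPM), *Mcemp1* (r = 0.97, 94.1 CPM), *Tmsb4x* (r = 0.97, 1418 CPM), *Mxd1* (r = 0.96, 393 CPM) and *Cd44* (r = 0.96, 255 CPM). *Tmsb4x* encodes thymosin beta 4, a protein that binds actin monomers, *Mxd1* a partner of the transcription factor MAX, and *Cd44* a receptor for hyaluronan. By deviations from the group means they were *Wfdc21* (r = 0.98), *Camp* (r = 0.97), *Tmsb4x* (r = 0.97), *Nlrp12* (r = 0.96) and *Trem3* (r = 0.96). Of these, *Camp* encodes the cathelicidin of secondary granules and *Trem3* a receptor of myeloid cells. The 9 genes themselves ranged from an r of 0.03 for *Il1r2* to 0.94 for *Cxcr2* on the first measure.

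The pathways around the 9 genes are given by the counts of their members, beside the shares of all genes above. These lists too were chosen with earlier results of these data known, and their counts are descriptions. In the IL-1 axis, 4 of 12 genes fell under CR (*Il1rn*, *Pycard*, *Gsdmd* and *Myd88*) and 2 rose (*Il1r1* and *Irak2*), with a median log2 fold change of -0.26. *Pycard*, the inflammasome adaptor ASC, was at 22.3 ± 2.40 CPM AL and 15.3 ± 1.18 under CR and fell by 0.55 (padj = 0.00436). *Il1r1*, the signalling receptor of IL-1, was at 43.5 ± 5.08 CPM AL and 64.9 ± 19.0 under CR, with a log2 fold change of 0.58 (padj = 0.0417), a call lost without any of 8 of the 14 samples (padj up to 0.143). *Il1a* had a log2 fold change of -0.59 (padj = 0.0666). Only *Gsdmd*, 1 of 12, fell in BMAd-Pnpla2-/- mice, where the median was -0.24.

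Of 8 tested chemokines and receptors of the CXCR2 and CXCR4 axis, *Ppbp* and *Cxcr1* fell in BMAd-Pnpla2+/+ mice. *Ppbp*, a CXCR2 ligand stored in platelets, was at 955 ± 251 CPM AL and 453 ± 141 under CR and fell by 1.08 (padj = 0.00788). Of 3 tested megakaryocyte genes 2 fell in the same comparison, and the part of that lineage in the value of *Ppbp* was not tested. *Cxcr1*, the sister receptor of *Cxcr2*, was at 2.25 ± 0.572 CPM AL and 1.01 ± 0.270 under CR and fell by 1.16 (padj = 0.0383). In BMAd-Pnpla2-/- mice *Cxcr1* fell by 1.46 (padj = 0.0476) and *Cxcl5* rose. In BMAd-Pnpla2+/+ mice the call of *Cxcr1* was lost without AL replicates 2, 3 or 4 or CR replicates 2 or 3 of that genotype (padj up to 0.108). The call in BMAd-Pnpla2-/- mice was lost without any of 9 of the 14 samples (padj up to 0.169). *Cxcl2*, another ligand of the receptor, was at 1.28 ± 1.10 CPM AL and had a log2 fold change of -0.93 (padj = 0.173).

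In the list for the G-CSF axis 2 of 9 tested genes fell in BMAd-Pnpla2+/+ mice, both of them subunits of the receptor for GM-CSF and not for G-CSF. *Csf2ra* fell by 0.45 (padj = 0.0194) and *Csf2rb* by 0.40 (padj = 0.0212). Each lost its call without BMAd-Pnpla2+/+ CR replicate 3, and *Csf2rb* also without AL replicate 1 (padj up to 0.0579 and 0.0603). *Csf2ra* fell by 0.72 in BMAd-Pnpla2-/- mice (padj = 0.0114, and 0.0585 without BMAd-Pnpla2-/- CR replicate 3). *Pim1*, a kinase induced by STAT signalling, had a log2 fold change of -0.48 (padj = 0.0623) in BMAd-Pnpla2+/+ mice. Besides the 2 receptor subunits no gene of that list passed in those mice, the JAK and STAT genes included. *Csf3* itself, the gene of G-CSF, did not pass the filter on low counts. Of the partners of the formyl peptide receptors, *Anxa1*, which encodes annexin A1, an FPR2 ligand, had a log2 fold change of -0.46 (padj = 0.159). *Gnai2*, the G protein subunit through which these receptors signal, had one of -0.15 (padj = 0.340) in BMAd-Pnpla2+/+ mice and fell by 0.59 (padj = 0.0173) in BMAd-Pnpla2-/- mice, a call lost without BMAd-Pnpla2-/- AL replicates 1 or 3 or CR replicates 2 or 3 (padj up to 0.0826).

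Relatives of the alarmins moved in both directions. Of 12 tested S100 genes and alarmin receptors, *S100a10* fell under CR in BMAd-Pnpla2+/+ mice by 0.43 (padj = 0.00889), whereas *S100a16* rose by 1.12 (padj = 0.00477), from 14.01 ± 1.31 to 30.4 ± 9.99 CPM. *S100b* rose by 1.11 (padj = 0.0277), from 9.76 ± 2.98 to 21.1 ± 7.11 CPM, a call lost without BMAd-Pnpla2+/+ AL replicates 2, 3 or 4 or CR replicates 2 or 3 (padj up to 0.0842). The median of that list was 0.10, and in BMAd-Pnpla2-/- mice none of the 12 passed in the main fit (6 at an unadjusted p under 0.05, as for 29.1% of all genes tested). There *S100a10*, *S100a16* and *S100b* had log2 fold changes of -0.35 (padj = 0.0612), 0.76 (padj = 0.0651) and 1.08 (padj = 0.0815). They passed in 3, 4 and 1 of 8 alternatives to the processing, and each in 2 of 14 leave-out runs. *Retn*, which encodes resistin, an adipocyte product in mice and the relative of *Retnlg*, rose from 4.81 ± 2.28 to 55.9 ± 18.7 CPM in BMAd-Pnpla2+/+ mice, a log2 fold change of 3.54 (padj = 3.95e-04), and from 2.44 ± 0.940 to 18.6 ± 7.63 CPM in BMAd-Pnpla2-/- mice, one of 2.93 (padj = 0.00700). The 6 adipocyte marker genes rose in both genotypes, with median log2 fold changes of 2.07 and 2.19.

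Of 28 other genes listed for mature neutrophils, 13 fell and 1 rose in BMAd-Pnpla2+/+ mice, with a median of -0.50. Not all of the 28 are limited to neutrophils, and the part of other cells in their values was not tested. *Hdc*, which encodes the enzyme that makes histamine, fell by 1.30 (padj = 0.00409), *Ly6g* fell by 1.23 (padj = 0.00577), and *Ifitm1*, an interferon-induced membrane protein, fell by 1.01 (padj = 0.0340). *Ifitm1* lost its call without BMAd-Pnpla2+/+ AL replicates 1 or 3 or CR replicates 2 or 3 (padj up to 0.0939). In BMAd-Pnpla2-/- mice 5 fell and none rose, with a median of -0.37. *Hdc* fell there by 1.56 (padj = 0.00944), and *Ly6g* fell by 0.93 (padj = 0.0498), a call lost without any of 10 of the 14 samples (padj up to 0.155).

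Some genes of earlier stages of the lineage also fell in BMAd-Pnpla2+/+ mice. All 5 primary granule genes had negative values and 3 fell, *Prtn3* by 0.83 (padj = 0.0112), *Mpo*, which encodes myeloperoxidase, by 0.51 (padj = 0.0243) and *Ctsg* by 0.47 (padj = 0.0368). Of 6 secondary granule genes *Ltf*, which encodes lactoferrin, fell by 0.997 (padj = 0.00696) and *Camp* by 0.85 (padj = 0.0191), while *Chil3* had a log2 fold change of 0.58 (padj = 0.102). Without BMAd-Pnpla2+/+ CR replicate 2 or CR replicate 3 the calls of *Mpo*, *Ctsg* and *Camp* were lost, as were those of *Mpo* and *Ctsg* without AL replicate 1, *Ctsg* without AL replicate 2, and *Ctsg* and *Camp* without AL replicate 3. Their padj then reached 0.0682 (*Mpo*), 0.103 (*Ctsg*) and 0.0598 (*Camp*). In BMAd-Pnpla2-/- mice none of the 11 granule genes passed in the main edgeR fit. The medians there were -0.34 and -0.41, against -0.47 and -0.45 in BMAd-Pnpla2+/+ mice. At an unadjusted p under 0.05 were 2 of 5 and 3 of 6, against 29.1% of all genes tested. *Prtn3* passed there in 4 of 8 alternatives to the processing and 2 of 14 leave-out runs, *Mpo* in 2 and 2, and *Ltf* in 2 and 1. *Chil3*, with a positive value, passed in 1 and 1, and *Ctsg* and *Camp* passed in none. Among 6 granulocyte transcription factors, *Cebpe*, needed for secondary granules, fell by 0.81 (padj = 0.00889), *Cebpd* by 0.52 (padj = 0.00577) and *Spi1*, which encodes PU.1, fell too. *Cebpa*, a factor that adipocytes also express, rose by 1.19 (padj = 0.00556). *Cebpd*, *Cebpe* and *Spi1* fell in BMAd-Pnpla2-/- mice too, *Cebpe* by 0.99 (padj = 0.0146), a call lost without AL replicate 3 or CR replicates 2 or 3 of that genotype (padj up to 0.0668). *Cebpd* fell there by 0.60 (padj = 0.0121, and 0.0596 without CR replicate 3).

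**Figure D5:**
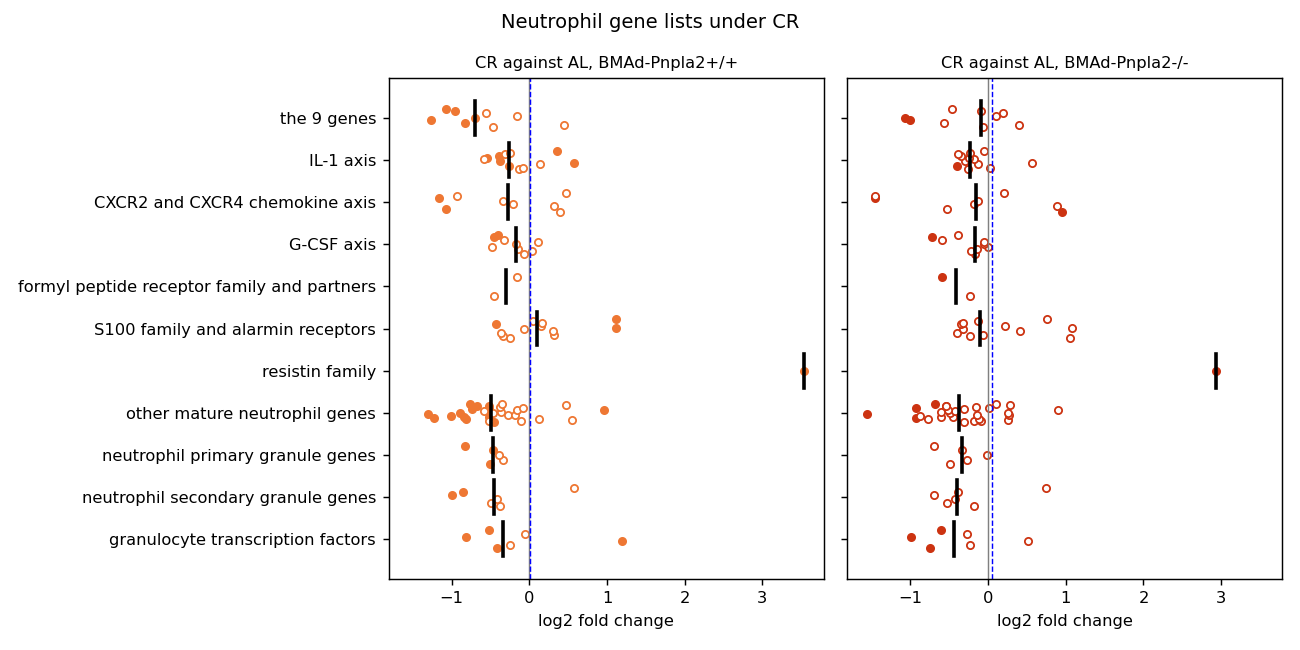
Log2 fold change of CR against AL in BMAd-Pnpla2+/+ (left) and BMAd-Pnpla2-/- mice (right) for each tested gene of the 9 and of 10 lists around them; filled points passed an adjusted p of 0.05, black bars are list medians and the dashed line is the median of all genes tested. The 9 genes have a median of -0.70 on the left and -0.09 on the right, and *Retn*, the only tested gene of the resistin family list, lies alone at 3.54 and 2.93.

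Some of the 9 genes are also expressed by monocytes, of whose 8 markers 4 were lower in BMAd-Pnpla2+/+ mice, at a median of -0.38 on the log2 scale (*Ly6c2*, *Ccr2*, *Ms4a6c* and *Irf8*). Their summed level was 1563 to 2008 CPM AL and 1406 to 1603 CPM under CR, and *Ly6c2*, the most abundant, fell by 0.63 (padj = 0.00530). Of the same markers 2 were lower in BMAd-Pnpla2-/- mice, and their summed level was 1656 to 1811 CPM AL and 1412 to 1629 CPM under CR. Of 8 macrophage markers none was lower and 2 were higher in BMAd-Pnpla2+/+ mice (*Vcam1* and *Mertk*), at a median of 0.16. *Vcam1*, the most abundant, rose by 0.70 (padj = 0.0219, and up to 0.0731 without BMAd-Pnpla2+/+ AL replicate 3 or CR replicate 3). The C1q genes and *Adgre1* did not pass. Eosinophil, basophil and mast cell markers summed to 421 to 590.5 CPM AL and 158 to 388 CPM under CR in BMAd-Pnpla2+/+ mice, and *Prg2*, a granule protein of eosinophils, fell by 1.05 (padj = 0.0417, and up to 0.116 without any BMAd-Pnpla2+/+ sample but CR replicate 4). The part of these cells in the values of the 9 genes was not tested.

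The adipocyte markers summed to 367 to 794 CPM in BMAd-Pnpla2+/+ AL and 1104 to 2595 CPM in BMAd-Pnpla2+/+ CR samples, and *Fabp4*, the most abundant, rose by 2.03 (padj = 0.00145). Of the remaining lists in BMAd-Pnpla2+/+ mice, 1 of 8 B cell genes fell, 1 of 6 T and NK cell genes fell and 2 rose, 0 of 7 erythroid genes passed in edgeR (1 at an unadjusted p under 0.05, against 40.3% of all genes tested), 2 of 3 megakaryocyte genes fell, 2 of 4 osteoblast and stromal genes rose and 2 of 3 endothelial genes rose. Their most abundant genes were *Ighm* (log2 fold change -0.47, padj = 0.468), *Cd4* (0.10, padj = 0.815), *Hba-a1* (0.17, padj = 0.797), *Itga2b* (-0.56, padj = 0.0541), *Col1a1* (1.92, padj = 0.0353, and up to 0.0911 without BMAd-Pnpla2+/+ AL replicates 2, 3 or 4 or CR replicates 1 or 2) and *Pecam1* (0.14, padj = 0.448).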

How the data were processed

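The authors aligned the read pairs with STAR to mm10 and deposited raw counts per gene for each sample (unstranded, first strand and reverse strand) and a matrix of counts for 23441 genes, which holds reverse-strand counts for 11 samples and unstranded counts for the 3 BMAd-Pnpla2-/- CR samples. Here the unstranded counts of all 14 samples were used for the genes of the matrix, with groups from the sample labels. edgeR 4.0.16 in R 4.3.3 scaled libraries by TMM, filtered low counts (filterByExpr), and tested contrasts of 1 model of the 4 groups by its two-sided quasi-likelihood test (robust fit), adjusted by Benjamini and Hochberg over 17494 genes. Standard errors are the log2 fold change over the square root of F, and log2 CPM used a prior count of 2. RPKM used merged exon lengths of GENCODE M21. DESeq2 1.42.0 was an alternative. The test was also run on counts simulated from its own fitted spread, with changes put only into better-counted genes. That form was kept after earlier ones had been run, and no result here rests on it. No column of the matrix was left unassigned. The 9 genes and the lists were chosen with earlier results of these data known. Besides the 9 and Pnpla2, genes were named by rule: in each neutrophil list the 3 with the largest absolute log2 fold change under CR in BMAd-Pnpla2+/+ mice, in each other list the most abundant, and the 5 most like the mean z-score by each of 2 correlations. Genes listed by name without values are the members of a count. The labels tie no sample to particular animals, so p-values measure the spread between these pools. Intervals cover that spread and not library type. The shares of all genes without overlap or past an unadjusted p were added after the data were seen, and 1 marker is not reported here.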

Additional observations from a re-analysis of the deposited data

How the results depend on the processing

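The 5 genes that passed under CR in BMAd-Pnpla2+/+ mice passed in each of the 9 alternatives to the processing (tool, scaling, filter, counts or samples fitted), and total counts alone added Il1r2 to make 6. An absolute log2 fold change over 1 left 2. Leaving out each sample in turn gave 4 to 6, with 4 without BMAd-Pnpla2+/+ CR replicate 3. In BMAd-Pnpla2-/- mice 2 passed, 1 when only the groups compared were fitted, and 0 to 2 with a sample left out, with 0 without BMAd-Pnpla2-/- CR replicate 3. Between genotypes AL, 0 passed in every alternative and leave-out run in edgeR and in DESeq2. Under CR it was 1 (Fpr2) with DESeq2, 1 with the deposited matrix, 0 with the 6 other alternatives, and 0 to 1 with a sample left out, with 1 without BMAd-Pnpla2+/+ CR replicate 4. For the difference of the responses to CR, 0 passed in every run.

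Among values that did not pass, some changed sign with a setting, and the cause was not tested. These were Il1b between genotypes AL (-0.018 with total counts alone and -0.020 with the replicate block), Hba-a1 under CR in BMAd-Pnpla2+/+ mice (-0.10 with the replicate block), and, under CR in BMAd-Pnpla2-/- mice with total counts alone, Pim1 (0.064), Cd4 (0.044) and Pecam1 (0.028). With a sample left out, values under CR in BMAd-Pnpla2+/+ mice that changed sign ranged from -0.35 to 0.029 (Fpr1), -0.060 to 0.34 (Cd4) and -0.44 to 0.43 (Hba-a1). In BMAd-Pnpla2-/- mice they ranged from -0.34 to 0.056 (S100a8), -0.29 to 0.053 (Retnlg), -0.053 to 0.17 (Fpr1), -0.017 to 0.29 (Fpr2), -0.11 to 0.13 (Pim1), -0.44 to 0.18 (Cd4) and -0.15 to 0.034 (Pecam1). Between genotypes AL the ranges were -0.065 to 0.20 (Retnlg), -0.18 to 0.073 (Il1r2), -0.17 to 0.19 (Il1b) and -0.086 to 0.15 (Fpr2). Under CR they were -0.30 to 0.023 (Il1r2) and -0.17 to 0.51 (Il1b), and for the difference of the responses -0.24 to 0.085 (Il1r2) and -0.18 to 0.51 (Il1b).

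The replicate numbers gave no clear pairing. Deviations of same-numbered samples correlated from -0.37 to 0.33, over 0.1 in 7 of 19 pairs. Those of samples with different numbers correlated from -0.44 to 0.36, over 0.1 in 16 of 54 pairs. Of the 14 samples, 5 correlated best with one of their own number. With the replicate block the counts of the 9 genes that passed were 5, 2, 0, 0 and 0, as without it.

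The limits are the small groups of 3 and 4 pools, the library type of the BMAd-Pnpla2-/- CR samples, and the stretches that Fpr2, Csf3r and Cxcr2 share with other genes. Counts over all genes moved more: under CR 4543 passed in BMAd-Pnpla2+/+ mice 2689 with only the groups compared, and 2200 to 5959 with a sample left out (2200, 2650, 2866 and 3005 without CR replicates 3 and 2 and AL replicates 3 and 2 of that genotype), and 2025 passed in BMAd-Pnpla2-/- mice, 3098 with DESeq2 and 3898 with the deposited matrix. Leaving out samples of BMAd-Pnpla2-/- mice lowered the 2025 to 248 (CR replicate 3), 443 (AL replicate 1), 510 (AL replicate 3) and 817 (CR replicate 2). Between genotypes under CR 3 passed, 8 with total counts alone, 1617 with DESeq2 and 2451 with the deposited matrix, and in edgeR 2092 without BMAd-Pnpla2+/+ CR replicate 4, 256 without CR replicate 3 and 240 without AL replicate 2 of that genotype, and 0 to 2 without any other sample. For the difference of the responses 0 passed, 0 with total counts alone or with any sample left out, 65 with DESeq2 and 678 with the deposited matrix, and between genotypes AL DESeq2 gave 19 against 0. Of the 26 list genes named that passed in BMAd-Pnpla2+/+ mice, 14 kept their calls in every leave-out run and alternative, and of 10 in BMAd-Pnpla2-/- mice 2 did. Alternatives lost most calls for Il1r1 in BMAd-Pnpla2+/+ mice (3 of 9) and Ly6g in BMAd-Pnpla2-/- mice (3 of 8). Of the 11 named that did not pass in BMAd-Pnpla2+/+ mice, 7 stayed so in all of these runs, and of 27 in BMAd-Pnpla2-/- mice 12 did. Among the genes most like the 9, D1Ertd622e, Alox5ap and Arg2 entered with the deposited matrix.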
